A study of Mus musculus with 5 samples.

Results

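Cd24a Col15a1 Ramp3 mesenchymal cells are a small group of ovarian stromal cells that were picked by the genes they contained. A cell was taken when it held at least 1 UMI, that is 1 counted RNA molecule, of at least 4 of Cd24a, Col15a1, Ramp3, Aplnr, Spry1, Hdc and Scml4. It also had to show at most 3 of Hhip, Ptch1, Mest, Heyl, Alpl, Enpep and St6gal2, at most 4 UMIs of Inha, and 0 UMIs of Cdh5, Ptprc, Rgs5 and Krt19. Cells needed at least 1000 detected genes and under 15% of their UMIs from mitochondrial genes. Of the 48163 deposited cells 39967 passed these 2 filters, and 209 of them fit the rule. They numbered 12, 63, 61, 27 and 46 at 2, 3, 4, 5 and 6 wk.

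The cells came from untreated C57BL6/J mice aged 2, 3, 4, 5 and 6 wk. Whole ovaries were dissociated with trypsin, live cells were sorted by dye exclusion, and 1 library per age was made with 10x Genomics 3′ v3.1 chemistry. The number of mice behind a library is not given in the sources used here, no age has a replicate, and no test between ages was run. The libraries held 9471, 9253, 11077, 7779 and 10583 cells with 124938004, 93438618, 117666094, 107071492 and 144609431 UMIs in all, in order of age. Pairs of libraries shared 18 to 35 cell barcodes, and no barcode of these cells was shared.

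The stroma between ovarian follicles holds fibroblasts, smooth muscle, vessels with their pericytes, and the progenitors of the theca, the layer that wraps a growing follicle and makes androgens. Theca progenitors answer hedgehog ligands sent by granulosa cells, and Hhip and Ptch1, a pair of genes that the rule limits, are targets of that pathway. A basement membrane of type IV collagen and laminin separates granulosa cells from the theca and also surrounds vessels and smooth muscle cells.

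The 7 markers belong to several systems. Cd24a encodes a small surface sialoglycoprotein, and Col15a1 a collagen found at basement membranes. Ramp3 encodes a partner of the calcitonin receptor-like receptor, Aplnr the receptor for apelin, and Spry1 a feedback inhibitor of receptor tyrosine kinases. Hdc makes histamine from histidine, and Scml4 encodes a protein of the Polycomb family. In GRCm38, the build of the deposited gene lists, Cd24a lies at chr10:43578284-43584265, Col15a1 at chr4:47208161-47313167, Ramp3 at chr11:6658521-6677475, Aplnr at chr2:85136225-85139923 and Spry1 at chr3:37639947-37644598. Scml4 lies at chr10:42860370-42960780, and Hdc, the only 1 of the 7 on the minus strand, at chr2:126593667-126619299. These intervals are those of the whole genes.

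The measured values of these genes chose the cells, so they are given as a description. Among the 209 cells, 120 held exactly 4 of the 7 markers, 61 held 5, 23 held 6 and 5 held all 7. Another 273 cells met every other condition with 3 markers and lay just outside the rule. At the upper limit, 119 cells held 3 of the 7 early theca genes, the most allowed, while 208 cells with enough markers held 4 or more of those genes, 115 of them exactly 4. The commonest combination of markers was Cd24a, Col15a1, Ramp3 and Spry1 without the other 3, in 44 cells. The boundary towards the early theca cells therefore ran through a densely filled range. Without the limit on Inha and the exclusion of Cdh5, Ptprc, Rgs5 and Krt19, 506 cells met the conditions on markers and early theca genes. Of these 251 held Cdh5, an endothelial gene, 32 held Rgs5 and 43 were over the limit on Inha.

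Col15a1 was detected in 97.6% of the cells, Cd24a in 86.6%, Spry1 in 84.2% and Ramp3 in 72.2%. Scml4 was found in 44.5%, Hdc in 40.7% and Aplnr in 32.5%, so the last 3 marked a minority. Free RNA in the droplets gives a background, for which immune cells were taken as a type that should lack collagen: 3.06% of 327 immune cells had a UMI of Col15a1, at a median of 8364 UMIs per cell against 12273 in the Cd24a Col15a1 Ramp3 cells. Cd24a is itself carried by blood cells and was found in 49 of the immune cells, and Ramp3 was found in 11.9% of them. Hdc was detected in 10.2% of 14031 granulosa cells and is also made by some immune cells. Its pooled level in the immune cells was 77.3 CPM, the UMIs of a gene per 1000000 UMIs of the same cells. There it ranged from 4.59 CPM at 6 wk to 368 CPM at 2 wk.

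In order of age, Cd24a measured 179, 337, 525, 311 and 220 CPM in these cells, Col15a1 193, 339, 582, 464.5 and 594 CPM, and Spry1 151, 87.9, 174, 217 and 249 CPM. Ramp3 measured 75.4, 246, 159.5, 120.5 and 273 CPM, and Aplnr 9.43, 27.2, 52.6, 28.5 and 111 CPM. Of the 7 markers 6 were lowest at 2 wk, and Spry1 was lowest at 3 wk. The early theca type cells, defined below, held the markers at lower pooled levels that were still above those of most cells, with 93.0 CPM of Cd24a, 108 CPM of Col15a1 and 30.3 CPM of Ramp3.

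Of the genes that the rule limited, Hhip measured 30.6 CPM in these cells and 193 CPM in the early theca type cells, and Mest 27.8 and 121 CPM. Ptch1 measured 271 and 423 CPM. Enpep was at 187 and 193 CPM and Heyl at 120.5 and 110 CPM, so the limit kept out cells with several of the genes without removing Enpep or Heyl RNA.

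The label mesenchymal was checked on genes outside the rule. Of the 209 cells, 198 also held at least 4 of Dcn, Pdgfra, Lum, Mfap4, Col1a2, Mmp2 and Tcf21, the gate used here for mesenchymal cells. Dcn, a collagen-binding proteoglycan of fibroblasts, measured 1583, 1025, 1587, 1720 and 2112 CPM over the 5 ages. Pooled levels were 2872 CPM for Col1a2, a chain of type I collagen, and 229 CPM for Pdgfra, a growth factor receptor of stromal cells. All 12 genes of a mesenchymal and fibroblast list had UMIs in these cells. The list shares genes with the gate.

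Markers of other cell types were mostly near 0. Of 6 immune markers Laptm5, Coro1a and C1qa were at 0 UMIs and the sum was 16.3 CPM, against 9417 CPM in immune cells. The 6 granulosa markers summed to 80.2 CPM against 1871 to 2641 CPM in the granulosa cells of the 5 libraries, and Foxl2 made up 61.8 CPM of it. Krt7, Upk3b and Upk1b of the surface epithelium, Ddx4, Dazl and Zp2 of germ cells, and Sox10 of glia were at 0.

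Markers of blood endothelium at all 5 ages, and of pericytes from 3 wk on, summed to more than in the other mesenchymal cells, and markers of lymphatic endothelium to less. The 6 pericyte markers, all detected, summed to 47.1, 169.6, 187.5, 120.5 and 127 CPM in order of age, against 53.5, 44.6, 55.8, 45.3 and 40.2 CPM in the other mesenchymal cells. The most abundant was Abcc9, a potassium channel regulator, at 44.8 CPM, while Higd1b had 1 UMI. The 6 blood endothelium markers summed to 37.7, 101.5, 107, 78.9 and 118 CPM against 32.6, 31.9, 50.1, 55.4 and 50.3 CPM, with Emcn at 86.1 CPM making up most of it, Cldn5 at 0 and Pecam1 at 1 UMI. The 4 lymphatic endothelium markers summed to 4.71, 13.6, 3.29, 6.57 and 2.52 CPM against 18.4, 14.0, 19.7, 17.5 and 7.55 CPM, with Mmrn1 at 0. Every cell with a UMI of Rgs5, a pericyte gene, or Cdh5, an endothelial gene, had been removed, both from these cells and from the mesenchymal cells they are compared with. The part of pericyte RNA in the results on basement membrane genes below was not tested.

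The share of these cells among all filtered cells was 0.155% at 2 wk (95% interval 0.0800 to 0.270%), 0.823% at 3 wk (0.633 to 1.05%), 0.665% at 4 wk (0.509 to 0.854%), 0.412% at 5 wk (0.272 to 0.599%) and 0.521% at 6 wk (0.382 to 0.695%). These exact binomial intervals, like all intervals given here, cover counting error only and not the spread between mice. The share was lowest at 2 wk, and its interval there did not overlap those of the other ages. The ratio of 3 wk to 2 wk was 5.32 (2.84 to 10.8) and that of 6 wk to 2 wk 3.37 (1.76 to 6.99). Among mesenchymal cells alone the shares were 0.377, 2.19, 2.60, 1.39 and 1.51%.

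A rule on detected genes depends on depth, since deeper cells reach the 4 markers, the upper limit and the exclusions more easily. The median cell of the group held 16686, 12227, 9779, 16112 and 16009 UMIs in order of age. When each cell was thinned to 5000 UMIs, with 267 to 975 shallower cells per library left out, 5, 35, 58, 32 and 76 cells fit the rule, which was 0.0668, 0.524, 0.699, 0.542 and 0.950% of the cells kept. The share at 2 wk was the lowest after thinning too, while 3 wk went from the highest share to below 4, 5 and 6 wk. Only 1, 24, 25, 11 and 20 of the thinned cells had also fit the rule at full depth. Thinning also eases the exclusions, so cells that Cdh5, Ptprc, Rgs5, Krt19 or Inha kept out at full depth could enter. The thinned series therefore does not follow the same cells at equal depth, and the part of such entries in it was not tested.

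**Figure D1:**
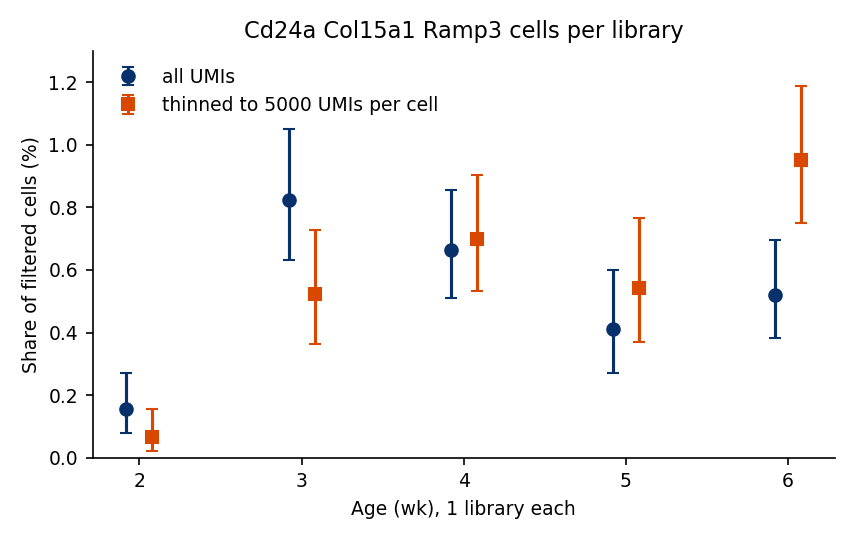
Share of filtered cells that fit the rule (percent) at each age in weeks, with all UMIs (circles) and after thinning each cell to 5000 UMIs (squares); bars are exact binomial 95% intervals, and each age is 1 library. The 2 wk share is the lowest in both series, at 0.155% and 0.0668%.

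Cells picked by 7 genes need not be alike in the rest of the genome, so their nearest neighbours were found within each library on 2000 variable genes, with every gene of the rule and of the gates left out. In order of age 6.67, 24.5, 19.4, 16.9 and 21.9% of the 20 nearest neighbours of these cells were also Cd24a Col15a1 Ramp3 cells, against shares of 0.377, 2.19, 2.60, 1.39 and 1.51% of the cells searched. The neighbours were therefore enriched 7.48-fold to 17.7-fold over the share. A larger part of the neighbours, 56.3, 29.5, 31.8, 41.7 and 46.5%, were early theca type cells, which made up 8.91 to 12.5% of the cells searched. Interstitial type cells were rarer among the neighbours than among the cells searched at all 5 ages, with 7.41% against 19.0% at 5 wk. Over all libraries 21 of the 209 cells had no neighbour of their own kind.

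**Figure D2:**
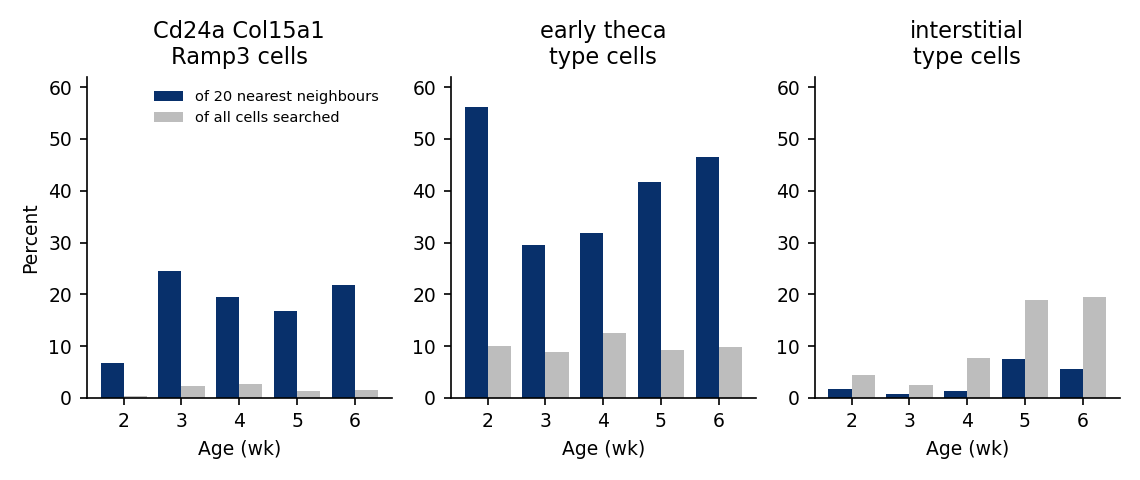
Percent of the 20 nearest neighbours of the Cd24a Col15a1 Ramp3 cells that belong to each type (dark bars) and percent of that type among all cells searched (grey bars), by age in weeks. At every age the cells' own kind and the early theca type are more frequent among the neighbours than among the cells searched, and the interstitial type is less frequent.

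Levels of other genes were compared with 3 groups of cells within each library. The other mesenchymal cells were the 13177 cells of the mesenchymal gate outside the rule. The early theca type comprised 1403 cells with at least 4 of the 7 early theca genes, and the interstitial type 1351 mesenchymal cells with at least 2 of Lrat, Tmeff2 and Cxcl12. The last 2 groups overlap with the first, and all 3 exclude cells with a UMI of Cdh5, Ptprc, Rgs5 or Krt19 or over 4 UMIs of Inha, as the rule does. UMIs were summed over the cells of a group and scaled to CPM, and a gene was called higher when its ratio was at least 1.5 in all 5 libraries and lower when it was at most 1/1.5 in all 5. Since the cells were chosen on these same libraries, the calls are descriptions and carry no test. With 212196, 807997, 607995, 456378 and 794885 UMIs in the group, the 3 UMIs that a count of 0 allows correspond to 14.1, 3.71, 4.93, 6.57 and 3.77 CPM.

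Against the other mesenchymal cells 136 of 8095 genes were called higher, which is 1.68%, and 277 called lower, which is 3.42%. Without the 2 wk library, whose 12 cells give the least precise ratios, 252 were called higher. The counts include Enpep (higher) and Hhip (lower), which the rule limited. With each 0 read as 3 UMIs, a setting added after the data were seen, 255 of the 277 were still lower. A gene entered on the mean of both groups, so 231 entered with under 10 CPM in the other mesenchymal cells and 336 with under 10 CPM in the Cd24a Col15a1 Ramp3 cells, and this filter tilts calls of such genes toward higher and lower, respectively. Counts and medians over a list are therefore descriptions. Among the 7528 genes with at least 10 CPM in both groups, also looked at after the data were seen, 95 (1.26%) were higher and 157 (2.09%) lower. The genes ranked highest were Pla1a, a phospholipase that acts on phosphatidylserine, Slc6a11, a transporter of the transmitter GABA, and Etv4, a transcription factor that FGF signalling induces. Of the 16 genes ranked, only Clca3a1, Dlgap1 and Plac8 had at least 10 CPM in the other mesenchymal cells. The rest, with Pla1a, Slc6a11 and Etv4 among them, entered through the group where they are high, so their ratios are descriptions.

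Pla1a measured 61.3, 8.66, 19.7, 26.3 and 32.7 CPM in order of age, against 1.11, 0.822, 2.00, 2.37 and 1.87 CPM in the other mesenchymal cells. The pooled ratio was 15.6 (11.8 to 20.6), and 34 cells carried it. Its highest value, at 2 wk, came from 2 cells. Slc6a11 measured 9.43, 17.3, 24.7, 17.5 and 31.5 CPM against 0.565, 3.00, 4.17, 2.71 and 1.35 CPM, a ratio of 11.0 (8.25 to 14.5). For both genes the lowest library of the group was above the highest library of the other mesenchymal cells.

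Several of the leading genes act at the cell surface or in signalling. Unc5b, a netrin receptor, measured 14.1, 18.6, 54.3, 41.6 and 56.6 CPM, with a ratio of 7.53 (6.13 to 9.18). Steap4, a metalloreductase, measured 37.7, 33.4, 42.8, 65.7 and 49.1 CPM with a ratio of 5.03 (4.16 to 6.03). Clca3a1, a regulator of chloride channels, was found in 142 of the 209 cells and measured 184, 86.6, 120.1, 125 and 121 CPM against 35.4, 23.2, 30.4, 24.5 and 28.0 CPM. Its ratio was 4.00 (3.57 to 4.48) and varied only from 3.74 to 5.19 between libraries.

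The remaining genes with high ratios had various roles. Dlgap1, a scaffold protein of synapses, measured 28.3, 86.6, 67.4, 63.5 and 55.4 CPM with a ratio of 5.93 (5.07 to 6.90). Nrxn2, a neurexin, had a ratio of 6.77, Lrrc55, an auxiliary subunit of potassium channels, 7.88, and Kcns2, a silent potassium channel subunit, 5.56. Kif21b, a kinesin motor, had a ratio of 6.02, Arap2, a GTPase-activating protein, 7.97, and Vav3, an exchange factor for small GTPases, 8.71. Each of these 6 genes had 52 to 71 UMIs in the group, so their levels in single libraries are imprecise. Arap2 was also found in granulosa cells, at 34.2 CPM, and Vav3 in immune cells, at 47.1 CPM.

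**Figure D3:**
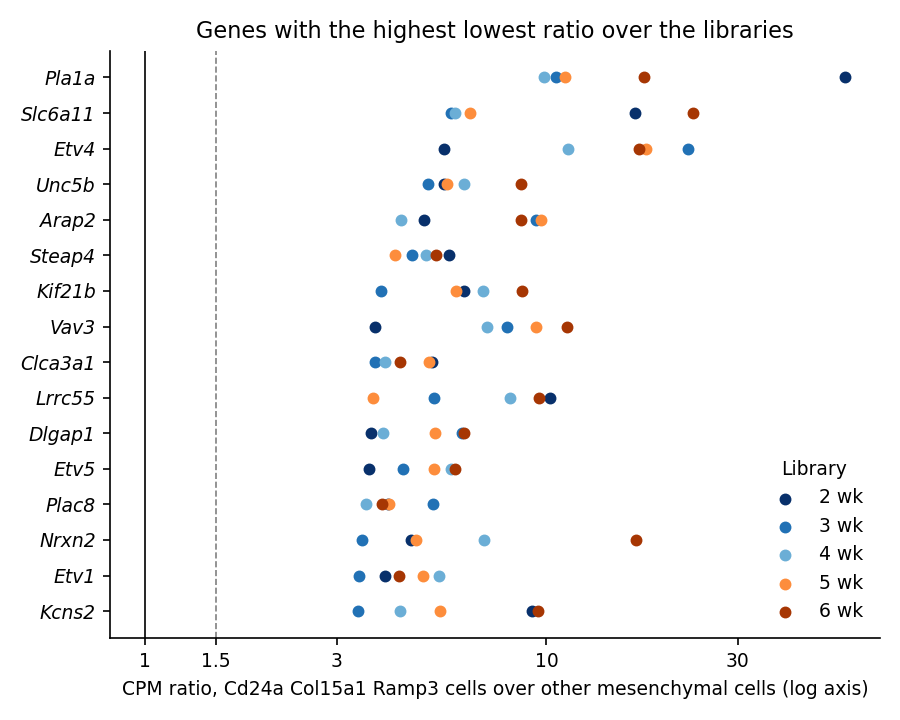
Ratio of CPM in the Cd24a Col15a1 Ramp3 cells over the other mesenchymal cells of the same library (log axis), for the 16 genes with the highest lowest ratio; each point is 1 library, the solid line marks a ratio of 1 and the dashed line 1.5. Pla1a spreads from 9.85 to 55.4, while Clca3a1 stays between 3.74 and 5.19.

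The 3 members of the PEA3 group of ETS transcription factors, which fibroblast growth factors induce through the ERK kinases, were all called higher. Etv1 measured 42.4, 34.7, 44.4, 39.4 and 28.9 CPM against 10.7, 10.2, 8.23, 7.99 and 6.74 CPM, a ratio of 4.11 (3.33 to 5.02). Etv5 measured 33.0, 34.7, 32.9, 19.7 and 30.2 CPM against 9.12, 7.89, 5.69, 3.75 and 5.12 CPM, a ratio of 4.60 (3.66 to 5.73). Etv4 measured 4.71, 37.1, 19.7, 17.5 and 13.8 CPM against 0.848, 1.64, 1.74, 0.987 and 0.813 CPM, a ratio of 19.1 (14.0 to 25.8), and 40 cells carried it. The interstitial type had 0 UMIs of Etv4, so its level was at least 82.1-fold higher in the Cd24a Col15a1 Ramp3 cells, taking 3 UMIs over that whole group as the floor.

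Of the 10 genes tested from a list of 13 FGF and ERK feedback genes, 4 were called higher against the other mesenchymal cells and none lower. Over all genes 1.68% were higher. The median log2 ratio was 1.57 against 0.03 over all genes tested. Etv1, Etv4 and Etv5 had under 10 CPM in the other mesenchymal cells and entered through the group where they are high, and of the 7 genes with at least 10 CPM in both groups only Spred2 was called, with a median of 1.14. The fourth was Spred2, an inhibitor of the ERK pathway, with 70.7, 44.6, 54.3, 61.4 and 56.6 CPM and a ratio of 2.23. Spry1, a marker of the rule, was left out. Spry4, a relative of Spry1, narrowly missed the call, with ratios of 1.44, 2.09, 4.42, 4.65 and 11.0 in order of age and levels of 18.9, 24.8, 55.9, 54.8 and 51.6 CPM. Dusp6, a phosphatase of ERK, measured 18.9, 9.90, 31.3, 26.3 and 113 CPM. The receptor Fgfr1 measured 60.1 CPM against 59.4 CPM in the other mesenchymal cells, and none of the 3 tested FGF receptors and ligands was called. Against the early theca type 3 of the 10 feedback genes were called higher, where 0.849% of all genes were. Against the interstitial type 5 were called higher, of which 4 entered in the same way, where 2.32% of all genes were.

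The basement membrane list had 4 genes higher and 1 lower of 17 tested, where 1.68% of all genes were higher and 3.42% lower. The median log2 ratio was 0.52. Col4a1, which with Col4a2 forms the main type IV collagen, measured 1060.0, 1868, 2785, 2196 and 2487 CPM against 501, 558, 808, 602 and 582 CPM. Its ratio was 3.78 (3.68 to 3.88), and every library of the group was above every library of the other mesenchymal cells. Col4a2 measured 518, 849, 1293, 1050 and 1097 CPM with a ratio of 3.43. Lamc3, a laminin chain, measured 222, 208, 225, 162 and 180 CPM with a ratio of 3.36, and Lama1, another laminin chain, was higher with a ratio of 1.67. Nid2, a linker of laminin and collagen, was lower with a ratio of 0.431. Against the early theca type, where Col4a1 was at 771, 1051, 1537, 1254 and 1232 CPM, none of the 17 genes was called.

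In the list of fibril collagens and partners no gene was called higher. Of 22 genes tested 7 were lower and 15 neither, with a median log2 ratio of -0.60, where 3.42% of all genes were lower. Among those with at least 10 CPM in both groups 4 of 19 were lower, where 2.09% of all such genes were. The lower genes were Postn (ratio 0.0416, not called with each 0 read as 3 UMIs), Col12a1 (0.124), Tnc (0.178), Fbln5 (0.185), Col11a1 (0.198), Lox (0.198) and Loxl1 (0.317), which encode a matricellular protein, a fibril-associated collagen, tenascin C, a fibulin, a minor fibril collagen and a pair of enzymes that cross-link collagen and elastin. Type I collagen was not among them. No gene of this list was called against the early theca type.

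The complement list had 5 genes lower of 8 tested and none higher, where 3.42% of all genes were lower, with a median log2 ratio of -1.22. C2, C3 and Cd55 entered through the group where they are high, and of the 5 with at least 10 CPM in both groups 2 were lower, with a median of -0.79. C3, the central component, had 0 UMIs in all 209 cells, against 2.85, 19.0, 25.5, 74.0 and 11.5 CPM in the other mesenchymal cells, and was at least 20.8-fold lower by the floor of 3 UMIs over the group. The 12 cells at 2 wk could not show 2.85 CPM, and with each 0 read as 3 UMIs C3 was not called, which leaves 4 of the 8. C2 (ratio 0.266), Clu (0.349) and the regulator Cd55 (0.149) were lower as well. Against the interstitial type 7 of 8 were lower, 4 of 5 with at least 10 CPM in both groups, C3 again only where 0 is taken as 0. Over all genes 3.75% were lower there. Against the early theca type only C2 was lower, of 6 tested, where 0.699% of all genes were.

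**Figure D4:**
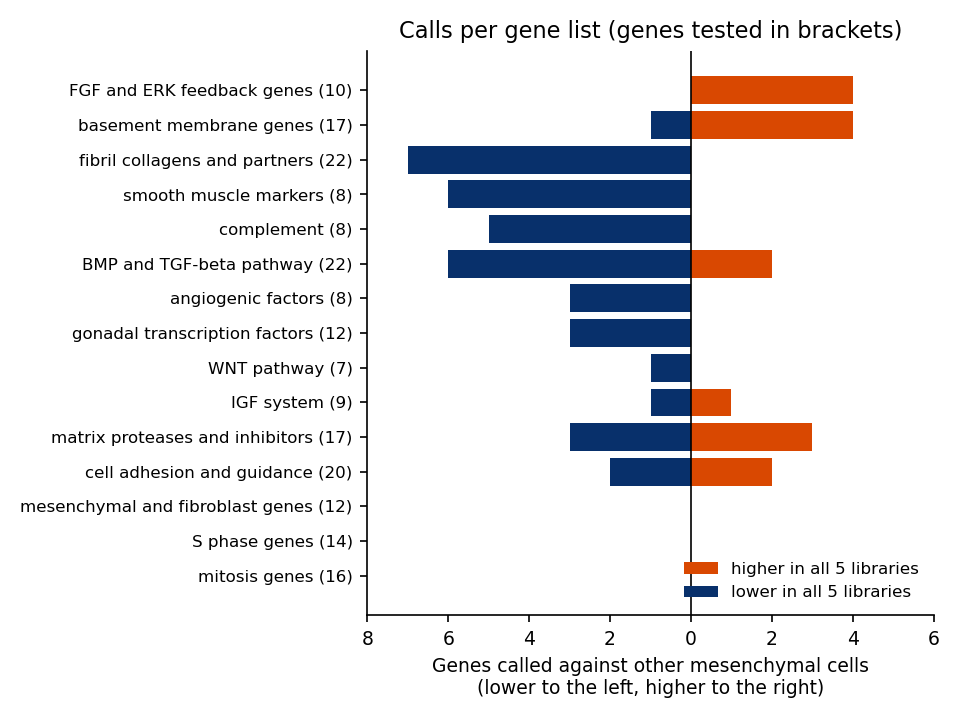
Number of genes called higher (to the right) and lower (to the left) than in the other mesenchymal cells in all 5 libraries, for 15 gene lists with the number tested in brackets. FGF and ERK feedback genes have 4 higher and none lower, and fibril collagens and partners 7 lower and none higher.

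Signalling genes of the TGF-beta family were split, with 2 higher and 6 lower of 22 tested against the other mesenchymal cells and none of 17 called against the early theca type. Over all genes 1.68% were higher and 3.42% lower against the other mesenchymal cells. With at least 10 CPM in both groups 2 were higher and 1 lower of 15, where 1.26% of all such genes were higher and 2.09% lower. Bmp7, a secreted ligand, measured 75.4, 32.2, 36.2, 28.5 and 27.7 CPM with a ratio of 2.80, and the receptor Tgfbr2 160, 75.5, 104, 136 and 177 CPM with a ratio of 2.60. The lower genes included the ligands Tgfb2 (ratio 0.0637) and Tgfb3 (0.202), the latent ligand binder Ltbp1 (0.0918) and the targets Id2 (0.344) and Id4 (0.136).

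Genes around the 7 markers were looked at for ligands and partners. Ramp2, which like Ramp3 joins the calcitonin receptor-like receptor, measured 344, 265, 258, 283 and 413 CPM against 136.5, 108, 109, 75.6 and 109 CPM and was higher, with a ratio of 2.80 (2.62 to 3.00). Ramp1 was lower (ratio 0.147), but had under 10 CPM in the Cd24a Col15a1 Ramp3 cells and entered through the other mesenchymal cells. Calcrl, the receptor that these proteins join, measured 23.6, 11.1, 21.4, 30.7 and 15.1 CPM and was called higher against the early theca type together with Ramp2. Calcrl had under 10 CPM in the early theca type and entered through the group where it is high. Of the ligands Calca and Adm2 were at 0, and Adm measured 6.25 CPM. The apelin receptor ligands Apln and Apela had 1 and 3 UMIs. The 4 histamine receptors Hrh1, Hrh2, Hrh3 and Hrh4 were at 0, and Hnmt, which breaks histamine down, had 6 UMIs.

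Among other receptors and ligands, Notch3, a Notch receptor of vessel wall cells that is also on the pericyte list, was higher with a ratio of 2.33, and the adhesion proteins Thy1 and Itga6 were higher with 5.79 and 2.70. Notch3 and Thy1 had under 10 CPM in the other mesenchymal cells and entered through the group where they are high. With at least 10 CPM in both groups 0 of 4 Notch genes and 1 of 18 adhesion genes were higher, where 1.26% of all such genes were. Igfbp7, a binding protein for insulin-like growth factors, was higher as well and measured 3445, 3548, 4586, 6129 and 5554 CPM, with ratios of 2.77 to 2.91 over the libraries. Pdgfa and Pdgfrl of the PDGF list were lower (0.114 and 0.0517), as were Vegfc, Vegfd and Angpt1 of the angiogenic factors (0.173, 0.205 and 0.266) and Kitl, the ligand of KIT (0.219). Pdgfa, Pdgfrl, Vegfc and Vegfd had under 10 CPM in the Cd24a Col15a1 Ramp3 cells and entered through the other mesenchymal cells. With at least 10 CPM in both groups 0 of 2 PDGF genes and 1 of 6 angiogenic factors were lower, where 2.09% of all such genes were. Wnt4, which supports ovarian fate, was lower with 37.7, 38.4, 39.5, 24.1 and 2.52 CPM and a ratio of 0.218.

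Of 12 gonadal transcription factors tested 3 were lower and none higher, where 3.42% of all genes were lower. With at least 10 CPM in both groups 1 of 10 was lower, where 2.09% of all such genes were. Gata6 measured 3.47 CPM against 63.0 CPM in the other mesenchymal cells and Wt1 6.95 against 104.6 CPM. Gata4, the other GATA factor of the gonad, was not called and measured 61.1 against 56.6 CPM. None of 9 nuclear receptors was called.

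The 14 genes of steroid synthesis summed to 227 CPM against 243.5 CPM in the other mesenchymal cells, with Fdx1, an electron carrier, at 86.1 CPM the most abundant. Cyp11a1 and Cyp17a1, which start steroid and androgen synthesis, had 1 UMI each, and Cyp19a1 and Insl3 were at 0. Star, which brings cholesterol into mitochondria, was found in 23 cells at 4.71, 3.71, 52.6, 81.1 and 34.0 CPM, with up to 21 UMIs in 1 cell. By the rule for ages given below Star was called higher late, 1 of 4 tested on this list, where 5.4% of all genes were. It averaged under 10 CPM early and entered through its later values. Of the 3 with at least 10 CPM on both sides 0 were higher late. Scarb1, a receptor that takes up cholesterol esters from lipoproteins, was the 1 gene called higher of 11 on the cholesterol list, with 122.5, 134, 136.5, 87.7 and 116 CPM and a ratio of 2.89. Hsd3b1 was lower (0.305).

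The single genes lowest against the other mesenchymal cells were mostly absent. All 10 ranked had pooled levels under 10 CPM in the Cd24a Col15a1 Ramp3 cells and entered through the other mesenchymal cells, so their ratios are descriptions. Edn3, an endothelin, had 1 UMI in the 209 cells against 12.8 to 27.7 CPM in the libraries of the other mesenchymal cells, a ratio of 0.0163 (0.000412 to 0.0908). Dlk1, an imprinted membrane protein, had 1 UMI (ratio 0.0120), and so had Syt1, a calcium sensor of secretion (0.0151). In the other mesenchymal cells Dlk1 went from 82.0 CPM at 2 wk to 1.29 CPM at 6 wk, below the 3.77 CPM that the group could show there. Akr1c14, an enzyme that reduces steroids, measured 0, 2.48, 3.29, 6.57 and 10.1 CPM against 44.6, 28.4, 36.9, 95.2 and 125 CPM. With each 0 read as 3 UMIs C3, Hba-a1, Dlk1 and Hmcn1 were not called. Slc26a7, an anion transporter, had 2 UMIs, Hmcn1, a matrix protein, 4 and Galnt15, a glycosyltransferase, 11. Hba-a1 had 0, but in the other mesenchymal cells it was at 144.5 CPM at 5 wk and at most 0.452 CPM at the other ages, and the red cell markers together at 592.5 CPM at 5 wk.

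The early theca type was the nearer neighbour and differed less. Of 8014 genes tested 68, or 0.849%, were called higher and 56, or 0.699%, lower. These counts were 151 and 87 without the 2 wk library, and 86 were lower without the 4 wk library. Tgfbi, a matrix adhesion protein, measured 405, 229, 219, 249.8 and 288 CPM against 83.3, 54.7, 61.3, 61.5 and 59.1 CPM in the early theca type, a ratio of 3.99 (3.65 to 4.35), so every library of the group was above every library of the early theca type. Plat, the tissue plasminogen activator, measured 89.5, 95.3, 132, 311 and 231.5 CPM against 31.8, 14.5, 31.5, 77.8 and 62.2 CPM, a ratio of 4.05 (3.63 to 4.50). Pla1a, Nrxn2 and Dlgap1 were also among the highest, with ratios of 5.60, 5.13 and 4.02, as was Adap2 with 3.83. Pla1a, Nrxn2 and Adap2 had under 10 CPM in the early theca type and entered through the group where they are high. Among the 7605 genes with at least 10 CPM in both groups 46 (0.605%) were higher and 30 (0.394%) lower.

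Nnat, a small imprinted membrane protein, had the lowest highest ratio over the libraries. It measured 18.9, 9.90, 6.58, 6.57 and 11.3 CPM against 139, 114, 108.5, 139.5 and 149.6 CPM in the early theca type, a ratio of 0.0737 (0.0489 to 0.107), and every library was far below every library of that type. Pdgfa (0.123), Akr1c14 (0.121), Angpt4, a ligand of the endothelial receptor Tie2 (0.0686), Cpa1, a carboxypeptidase (0.118), and Rbp4, the retinol carrier (0.208), were lower too. Among these, Pdgfa, Akr1c14 and Angpt4 had under 10 CPM in the Cd24a Col15a1 Ramp3 cells and entered through the early theca type. With each 0 read as 3 UMIs neither Angpt4 nor Cpa1 was called. Angpt4 had 4 UMIs in the group, and Cpa1 was at 0.165 CPM in the early theca type at 2 wk, below what the 12 cells at that age could show.

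Against the interstitial type 189 of 8131 genes (2.32%) were higher and 305 (3.75%) lower, and 294 were higher without the 2 wk library. Among the 7457 genes with at least 10 CPM in both groups 122 (1.64%) were higher and 184 (2.47%) lower. Cacna1s, a pore subunit of L-type calcium channels best known from skeletal muscle, measured 70.7, 44.6, 23.03, 26.3 and 17.6 CPM, against 0.547, 1.72, 0, 0.345 and 0 CPM, a ratio of 120.5 (40.0 to 595). Kcns2 had a ratio of 37.8 (16.3 to 107), Pla1a 46.4 and Kif21b 14.9. Cacna1s, Kcns2, Pla1a and Kif21b had under 10 CPM in the interstitial type and entered through the group where they are high, so their ratios are descriptions. Against the early theca type the ratios of Cacna1s and Kcns2 were 1.55 and 1.45, and neither gene was called. Dpt, a matrix protein of fibroblasts, went the other way with 8 UMIs in the group against 58.4 to 170.5 CPM in the libraries of the interstitial type (ratio 0.0315). Hs3st1 and Spon2 had 1 UMI each, Hs3st1 not being called with each 0 read as 3 UMIs, and the ratio was 0.0459 for Tgfb2 and 0.0678 for Lbp, a binding protein for lipopolysaccharide. Among these, Dpt, Hs3st1, Spon2 and Tgfb2 had under 10 CPM in the Cd24a Col15a1 Ramp3 cells and entered through the interstitial type.

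Of the higher genes 37 and of the lower genes 29 were called against all 3 groups. The 3 comparisons share the Cd24a Col15a1 Ramp3 cells themselves, and the other mesenchymal cells include cells of the other 2 groups. Median log2 ratios over all genes tested were 0.03, -0.03 and 0.01.

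Genes of the cell cycle were compared in the same way. None of 14 S phase and 16 mitosis genes was called against the other mesenchymal cells, with median log2 ratios of 0.81 and 0.72. Against the interstitial type 6 of 14 S phase and 4 of 14 mitosis genes were higher, or 3 of 8 and 1 of 5 with at least 10 CPM in both groups. Over all genes 2.32% were higher there, or 1.64% with at least 10 CPM in both groups. Against the early theca type none of 15 and 18 was called, with medians of -0.06 and -0.71. The S phase genes summed to 603, 662, 413, 743 and 775 CPM in order of age, above 485, 439.7, 357, 304 and 279 CPM in the other mesenchymal cells at every age. The mitosis genes summed to 1301, 402, 161, 1911 and 935 CPM against 669.7, 367, 458, 467 and 352 CPM, so the group's sum was above at every age but 4 wk. Counted by cells, those with at least 3 mitosis genes were 16.7, 12.7, 11.5, 29.6 and 19.6% of the group and 11.4, 5.87, 7.08, 5.18 and 5.44% of the other mesenchymal cells, above at all 5 ages, 4 wk included. In the early theca type they were 33.6, 27.5, 23.2, 27.7 and 28.0%, above the group at every age but 5 wk. The median cell held 12273 UMIs in the group, 9056 in the other mesenchymal cells and 16119 in the early theca type. The part of depth in these percentages was not tested. Mki67 measured 104, 29.7, 11.5, 223.5 and 126 CPM, and Top2a, a topoisomerase of dividing cells, 311, 103, 34.5, 366 and 230 CPM. Both were lowest at 4 wk and highest at 5 wk. Ube2c and Ndc80, a pair of mitosis genes, were also highest at 5 wk, with 221 and 57.0 CPM. Ube2c was found in 31 cells with up to 48 UMIs in 1 cell, so these levels rest on few cells.

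Ages were compared with the libraries at 2 and 3 wk on one side and those at 5 and 6 wk on the other. A gene was called higher late when the lower of the 5 and 6 wk values was at least 1.5 times the higher of the 2 and 3 wk values, and lower late in the reverse case. Of 7920 genes 428 (5.4%) were called higher late and 129 (1.63%) lower late. With totals that leave out mitochondrial and ribosomal protein genes the counts were 412 and 246, and with 3 wk alone as the early age, since 2 wk holds 12 cells, they were 1234 and 377. In the other mesenchymal cells, whose sums rest on far more UMIs, 140 of 8163 genes (1.72%) were higher late and 70 (0.858%) lower late. The calls shared by both groups were 52 higher, which is 12.1% of 428 and 37.1% of 140, and 10 lower, which is 7.75% of 129 and 14.3% of 70. The first 3 libraries were counted with another version of Cell Ranger than the last 2, so age and software version cannot be told apart.

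The 8 genes ranked highest by the lower late value over the higher early value were Gbp2, Ifi47, Rtp4, Mndal, Ifi204, Ifi203, Iigp1 and Xaf1. Gbp2, Ifi47 and Rtp4 lead because they had no UMI at 2 and 3 wk, and Gbp2 was not called with each 0 read as 3 UMIs. All 8 are known to be induced by interferons, the secreted signals of antiviral defence. Ifi203 and Mndal lie on the minus strand of chromosome 1 and overlap each other at chr1:173920407-173942672 and chr1:173849126-173942491, so the division of UMIs between them is uncertain.

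Mndal measured 0, 3.71, 82.2, 263 and 238 CPM in order of age, and 4.21, 5.14, 16.8, 50.8 and 61.3 CPM in the other mesenchymal cells. The late to early ratio was 84.0 (28.5 to 409) in the group and 12.5 in the other mesenchymal cells, and the difference between these ratios was not tested. Iigp1, a GTPase that attacks the vacuoles of parasites, measured 0, 3.71, 113.5, 188 and 83.0 CPM. Ifi47 measured 0, 0, 29.6, 35.1 and 42.8 CPM and was at least 13.6-fold higher late, and Rtp4 measured 0, 0, 28.0, 39.4 and 47.8 CPM and was at least 15.2-fold higher late, each against 3 UMIs over the cells of 2 and 3 wk. All 4 genes were above their 2 and 3 wk levels at 4 wk already.

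A list of 49 interferon-stimulated genes was drawn up after these values had been seen. Of 30 tested in the Cd24a Col15a1 Ramp3 cells 28 were higher late and none lower, where 5.4% of all genes were higher late, and of 29 tested in the other mesenchymal cells 26 were higher late, where 1.72% of all genes were. The list contains 7 of the 8 genes named above, so part of its count repeats them. Of the 30 genes 18 averaged under 10 CPM at 2 and 3 wk and entered through their later values, so the count follows in part from the choice of genes and the filter. Of the 12 with at least 10 CPM at both the early and the late ages 10 were higher late, where 3.54% of all such genes were. With each 0 read as 3 UMIs 25 were higher late in the Cd24a Col15a1 Ramp3 cells. Isg15, a ubiquitin-like modifier, measured 14.1, 11.1, 122, 234.5 and 176 CPM in the group, and its late to early ratio of 16.8 stood beside 16.2 in the other mesenchymal cells. Against the other mesenchymal cells of the same library 1 of 31 was called higher and 1 lower, with a median log2 ratio of 0.64. Over all genes 1.68% were higher and 3.42% lower there.

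The promoters of genes that interferons induce often carry the interferon-stimulated response element, here written as GAAANNGAAA and searched on both strands. It stood in 1131 of 32851 promoters (3.44%) of 300 bases, each from 250 before to 50 after the start of a gene. Some genes have several promoters, and counted by gene it stood in 1079 of 27025 genes (3.99%) and in 24 of the 38 genes on the list that had an entry. It stood in 12 of the 23 list genes that were called higher late and had an entry, and in 12 of the 15 without that call. Only 30 of the 49 list genes were tested across ages and 28 of them called. The 15 were therefore mostly genes too low to be tested, and not genes seen to stay level. Of the 8 named genes 5 had an entry and 3 held the letters, namely Gbp2, Mndal and Ifi203. A pair of these promoters is shown, 1 from each of the chromosomes that hold the 3 genes, so that the letters can be seen on either strand. They come from RefSeq on GRCm38.p6, with the match in capitals, from chr3:142620413-142620712 on the plus strand for Gbp2 and from chr1:173942443-173942742 on the minus strand for Ifi203.
Gbp2: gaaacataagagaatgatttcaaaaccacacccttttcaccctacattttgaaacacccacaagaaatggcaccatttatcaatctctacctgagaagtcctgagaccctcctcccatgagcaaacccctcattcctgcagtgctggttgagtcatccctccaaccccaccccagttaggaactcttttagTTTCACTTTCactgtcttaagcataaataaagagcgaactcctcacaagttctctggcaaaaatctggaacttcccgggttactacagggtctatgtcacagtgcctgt
Ifi203: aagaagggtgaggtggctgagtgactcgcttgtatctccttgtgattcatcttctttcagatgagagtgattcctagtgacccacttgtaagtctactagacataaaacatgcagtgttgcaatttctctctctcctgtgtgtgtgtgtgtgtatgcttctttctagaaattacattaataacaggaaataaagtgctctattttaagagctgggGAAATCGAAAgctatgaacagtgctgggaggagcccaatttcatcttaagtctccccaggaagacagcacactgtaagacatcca

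Gbp2, a guanylate-binding GTPase, itself measured 0, 0, 9.87, 39.4 and 13.8 CPM, with no UMI at 2 and 3 wk and 18 and 11 UMIs at 5 and 6 wk. Ifi203, a nuclear sensor of DNA, measured 0, 6.19, 72.4, 249.8 and 205 CPM. A match of letters is a description of the sequence and not a measured binding site.

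Contractile genes moved in the opposite direction. Of 8 smooth muscle markers 6 were lower late, namely Acta2, Tagln, Myh11, Actg2, Cnn1 and Lmod1, and 4 with each 0 read as 3 UMIs, when Cnn1 and Lmod1 were not called, while in the other mesenchymal cells none of the 8 was lower late and 1 was higher. Over all genes 1.63% were lower late in the Cd24a Col15a1 Ramp3 cells and 0.858% in the other mesenchymal cells. Myh11, Actg2 and Lmod1 averaged under 10 CPM late and entered through their earlier values, and of the 4 markers with at least 10 CPM on both sides 2 were lower late. Acta2, the smooth muscle actin, measured 1480, 1437, 1197, 447 and 466.7 CPM in order of age, against 2395, 2101, 2614, 3045 and 2857 CPM in the other mesenchymal cells and 1819, 1319, 1155, 1240 and 1201 CPM in the early theca type. In the Cd24a Col15a1 Ramp3 cells it was found in 12, 59, 38, 16 and 29 cells. Its 2 late libraries were below all 3 earlier ones.

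Myh11, the smooth muscle myosin heavy chain, measured 146, 97.8, 139.8, 2.19 and 13.8 CPM against 319, 278, 438, 503 and 346.5 CPM in the other mesenchymal cells. The early theca type went down too, with 159, 128, 107, 75.6 and 82.2 CPM of Myh11, which meets the rule for lower late. Tagln, an actin-binding protein, measured 240, 335, 656, 114 and 152 CPM against 1429, 1511, 1967, 2086 and 1709 CPM. Lmod1, which nucleates actin filaments, measured 9.43, 11.1, 39.5, 0 and 0 CPM, with 2 and 9 UMIs at 2 and 3 wk and none at 5 and 6 wk. In the group, Tagln and Lmod1 were highest at 4 wk and lowest at 5 and 6 wk. The 4 wk values rest on few cells, with 24 UMIs of Lmod1 in 5 cells and up to 13 in 1 cell, 85 UMIs of Myh11 in 9 cells and 399 UMIs of Tagln in 20 cells.

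The low values came near the level of free RNA. Granulosa cells, a type that should lack these genes, held 164, 127.5, 204, 139 and 187 CPM of Acta2 and 33.2, 26.5, 31.2, 22.4 and 26.9 CPM of Myh11. The late Myh11 values of the Cd24a Col15a1 Ramp3 cells were therefore below that background, and the late Acta2 values above it. Cnn1 measured 4.71 and 6.19 CPM at 2 and 3 wk, below the 13.8 and 11.8 CPM of granulosa cells. It rested on 5 cells, and 38 of its UMIs came from 1 cell at 4 wk, so its value of 75.7 CPM there stands for that cell. Des, an intermediate filament protein of muscle and pericytes, was not called across ages and measured 80.1, 86.6, 65.8, 87.7 and 85.6 CPM. Of 5 pericyte markers tested across ages Abcc9 and Kcnj8, channel subunits, were higher late, where 5.4% of all genes were. Kcnj8 averaged under 10 CPM early, entered through its later values and was not called with each 0 read as 3 UMIs. Of the 4 with at least 10 CPM on both sides 1 was higher late, where 3.54% of all such genes were. The median log2 ratio of late to early over these 4 was -0.5. Against the other mesenchymal cells of the same library 6 of the 8 smooth muscle markers were lower, where 3.42% of all genes were, with a median log2 ratio of -2.39. Against the early theca type none was lower and Des was higher, with a median of -0.51, and against the interstitial type 2 were lower.

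**Figure D5:**
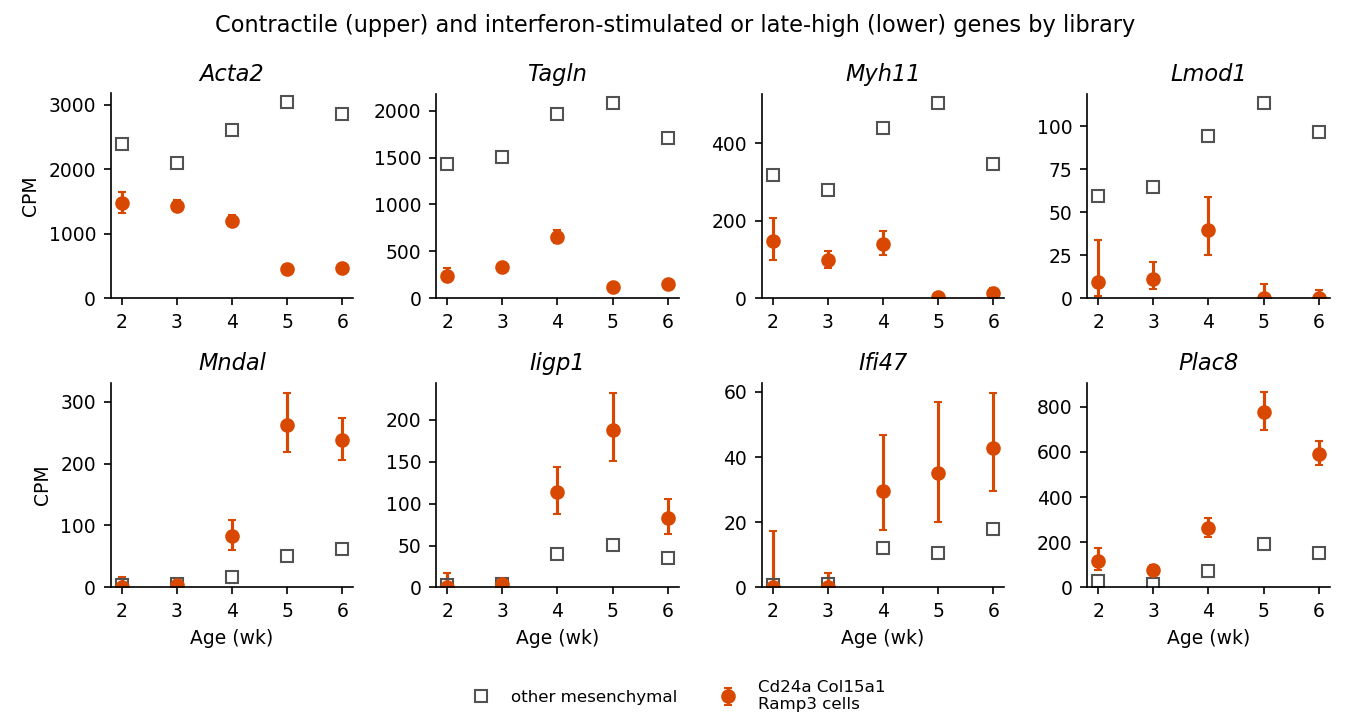
CPM of 4 contractile genes (upper) and 4 genes that rose with age (lower) by age in weeks in the Cd24a Col15a1 Ramp3 cells (circles, with exact Poisson 95% intervals) and in the other mesenchymal cells (squares). Myh11 is at 2.19 and 13.8 CPM in the circles at 5 and 6 wk and at 503 and 346.5 CPM in the squares, and Mndal reaches 263 CPM at 5 wk.

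Most of the genes called across ages lay outside these lists. Plac8, a small cysteine-rich protein, measured 118, 76.7, 263, 778 and 592.5 CPM against 29.2, 14.7, 74.1, 192 and 152 CPM in the other mesenchymal cells. It was thus higher in the group in all 5 libraries (ratio 4.27, 4.00 to 4.54) and rose late 7.74-fold, beside 7.08-fold in the other mesenchymal cells. Of the FGF and ERK feedback genes 4 of 10 were higher late, which were Spry2, Spry4, Dusp5 and Il17rd. Il17rd averaged under 10 CPM early and entered through its later values. With at least 10 CPM on both sides 3 of 9 were higher late, where 3.54% of all such genes were. In the other mesenchymal cells none of 7 tested was, where calls were fewer over all genes as well (1.72% against 5.4%), and the difference was not tested. Spry2 measured 37.7, 38.4, 74.0, 177.5 and 86.8 CPM. Timp3, an inhibitor of matrix proteases, Plat and Plau, the urokinase, were higher late among 17 genes of matrix proteases and inhibitors, where 5.4% of all genes were. In the other mesenchymal cells 0 of 18 were higher late and 1 was lower late, and the difference was not tested.

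Among the genes that fell most, Zdbf2, an imprinted gene, measured 89.5, 76.7, 47.7, 15.3 and 0 CPM, a late to early ratio of 0.0705 (0.0275 to 0.152), and the ratio was 0.212 in the other mesenchymal cells. Fez1, an adaptor for kinesin transport, measured 42.4, 29.7, 8.22, 2.19 and 3.77 CPM (ratio 0.0988), Syt7 28.3, 9.90, 9.87, 2.19 and 1.26 CPM, and Med26, a subunit of the Mediator complex, 37.7, 28.5, 6.58, 6.57 and 3.77 CPM. The unnamed gene AC160336.1 fell in the other mesenchymal cells too, with a ratio of 0.0482 beside 0.0789. Of the genes singled out at 5 wk, Ccl7, a chemokine, had 30 UMIs in 4 cells and none at any other age, with 20 in 1 cell, and Ppm1n, a phosphatase, had 2 UMIs at 5 wk, 16 over all ages, and its highest level at 2 wk. These 2 values rest on too few cells to describe the age.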

How the data were processed

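The authors used Cell Ranger for alignment to the mouse genome (mm10) and for counting UMIs. The deposited matrices hold raw counts for each gene in 48163 barcodes, not normalized. Their headers give Cell Ranger 3.1.0 for 2, 3 and 4 wk and 6.0.1 for 5 and 6 wk. The submitters' notes also name Seurat 4.1.0.

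From these counts, cells were gated by detected genes, their UMIs were summed per group and library and scaled to CPM. Shares carry exact Clopper-Pearson, levels exact Poisson and ratios conditional intervals, all at 95% and for counting error only. No test was run, because measured values chose the cells and, between ages, each age is 1 library and cells are not replicates. A gene entered a comparison when the mean of both groups' pooled CPM (for ages, the mean of the 5 CPM) was at least 10. The 7 markers, Inha, the 4 excluded genes and mitochondrial genes were left out of calls, as were the 7 early theca genes against the early theca type, and Lrat, Tmeff2 and Cxcl12 against the interstitial type. The genes of the mesenchymal gate were kept. A count of 0 entered the calls as 0, and as 3 UMIs in folds given by the floor and in an alternative added after the data were seen. Neighbours were searched on 30 principal components of 2000 variable genes in each library. Scrublet in scanpy 1.11.5 called 294, 232, 555, 162 and 244 of the deposited cells doublets, 1 of them among the 209 cells. Doublets were kept, except in an alternative. The random seed was 1.

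The genes named were the 16 with the highest lowest ratio and the 10 with the lowest highest ratio over the libraries against the other mesenchymal cells, and 6 and 6 against each of the early theca and interstitial types. Across ages they were the 8 with the highest lower late over higher early level, the 8 with the lowest higher late over lower early level and the 4 highest at 5 wk over 4 and 6 wk. Ribosomal, mitochondrial and predicted genes were left out of these rankings. To these were added the genes of the rule and of the lists described. The cells, the lists and the alternatives were chosen with earlier results of these data known, and the interferon list after the present values were seen. A few genes that the rule names are left out of the text.

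The calculation was tested on simulated data. Python 3.11.15, numpy 2.4.6, pandas 2.3.3, scipy 1.17.1, scikit-learn 1.9.0 and matplotlib 3.10.9 were used.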

Additional observations from a re-analysis of the deposited data

Results flagged for a closer look

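In 4 contractile genes the Cd24a Col15a1 Ramp3 cells and the other mesenchymal cells moved in opposite directions between the libraries at 2 and 3 wk and those at 5 and 6 wk, with UMIs pooled over each pair of libraries. The difference was not tested, since each age is 1 library. Acta2 went from 1446 to 459.5 CPM in the Cd24a Col15a1 Ramp3 cells and from 2282 to 2928 CPM in the other mesenchymal cells. By the levels given above, the early theca type also held less Acta2 at 5 and 6 wk than at 2 and 3 wk. Tagln went from 316 to 138 CPM and from 1461 to 1852 CPM. Myh11 went from 108 to 9.59 CPM and from 303 to 406 CPM, while the early theca type, at 159 and 128 CPM at 2 and 3 wk and 75.6 and 82.2 CPM at 5 and 6 wk, moved the same way as the Cd24a Col15a1 Ramp3 cells. Lmod1 went from 10.8 to 0 CPM and from 61.3 to 103 CPM, and in the Cd24a Col15a1 Ramp3 cells it was already rare at the early ages and was not called lower late with each 0 read as 3 UMIs. The other mesenchymal cells were not split by their content of contractile genes, so the part of cell composition in each library was not tested.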

How the results depend on the processing

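No paired test was run, since measured values chose the cells and no result comes from a test. Ratios between cell groups were taken within each of the 5 libraries, and between ages no library has a partner. Of 113 alternative values for 11 shares and counts 69 stayed within their limits (1.5 times for a count). A count does not say which genes: with at least 5 markers 123 genes were higher than in the other mesenchymal cells, 72 of them among the 136, and 586 were higher late, 210 of them among the 428. The share over all ages was 0.223% with at least 5 markers and 1.04% with no limit on the early theca genes, and its 6 wk to 2 wk ratio was 14.2 after thinning and 9.08 with at least 5 markers. Against the other mesenchymal cells 211 genes were higher with no such limit. With a minimum of 50 CPM the higher and lower counts were 56 and 87 there, 20 and 15 against the early theca type, 81 and 111 against the interstitial type, and 75 and 21 for late ages. With a fold of 2 they were 57 and 158, 16 and 16, 78 and 167, and 165 and 41. Leaving out each library in turn, which eases a rule that asks for all libraries, gave 140 to 252 higher and 300 to 348 lower against the other mesenchymal cells, 68 to 151 and 76 to 87 against the early theca type, and 204 to 294 and 342 to 415 against the interstitial type. Without 2 wk, added after the data were seen, 1234 genes were higher and 377 lower late.

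Genes lower late numbered 217 with at least 5 markers, 246 with totals that leave out mitochondrial and ribosomal genes, 216 with cells of 5000 to 20000 UMIs and 215 without dividing cells, the last added after the data were seen. With no limit on the early theca genes 265 were higher and 67 lower late. Within a Cell Ranger version the counts were 2022 and 1834 for 4 wk against 2 wk, and 1710 and 938 for 6 wk against 5 wk. Of 530 values for 42 named genes 443 stayed, 77 moved and 10 reversed, all 10 within a version. From 2 to 4 wk Cnn1 rose by 71.0 CPM and Lmod1 by 30.1 CPM. From 5 to 6 wk the difference was -25.6 CPM for Gbp2, -25.2 for Mndal, -3.85 for Ifi204, -44.7 for Ifi203 and -105 for Iigp1, and 1.58 for Fez1, 11.7 for Myh11 and 3.77 for AC160336.1. The cause of these changes was not tested. The 12 cells at 2 wk limit every statement on that age. With each 0 read as 3 UMIs, chosen after the data were seen, 149 genes were higher and 255 lower against the other mesenchymal cells, 82 and 47 against the early theca type, 199 and 277 against the interstitial type, and 396 and 130 higher and lower late. Another setting chosen after the data were seen asked for at least 10 CPM in both groups or at both early and late ages. It left out the genes that entered through 1 side only, and the counts were 95 and 157, 46 and 30, 122 and 184, and 253 and 77. The shares called fell too, from 1.68 to 1.26% higher and from 3.42 to 2.09% lower against the other mesenchymal cells.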

Other observations

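Several genes outside the lists were called higher against all 3 comparison groups and are named here after their values had been seen. Prlr, the prolactin receptor, measured 187 CPM over all ages against 47.9 CPM in the other mesenchymal cells. Ace, the angiotensin-converting enzyme, measured 97.2 against 30.8 CPM. Gfra2, a receptor for neurturin of the GDNF family, measured 49.7 against 4.32 CPM, and Piezo2, a mechanically gated channel, 35.4 against 4.36 CPM. Both were under 10 CPM in the other mesenchymal cells and entered that comparison through the group where they are high. Tmem100, a membrane protein known from endothelium, measured 492 against 193 CPM, and Asb4, an ankyrin repeat protein of ubiquitin ligases, 95.9 against 16.5 CPM. Bdnf, a neurotrophin, was among the genes lower against all 3 groups, with 9.03 against 41.8 CPM. It was under 10 CPM in the Cd24a Col15a1 Ramp3 cells and entered that comparison through the other mesenchymal cells. These contrasts were drawn on the same libraries that chose the cells and carry no test.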
